A study of Homo sapiens with 8 samples.

Results

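The kallikrein-related peptidases examined here are KLK5, KLK6, KLK7, KLK8, KLK10 and KLK11, 6 of the 23459 genes in the deposited count table. They were taken by symbol from the kallikrein cluster on chromosome 19 and were selected on a measured value, the higher level of KLK6 with lenalidomide, around which the other members were chosen. The comparison of lenalidomide with DMSO is therefore given for them as a description, with values, errors and intervals but no test. RNA was measured in Hct116 cells, an established human colorectal carcinoma line, by total RNA sequencing of 8 libraries. Of these, 4 came from cells kept for 16 h with 30 μM lenalidomide, an immunomodulatory drug that redirects the cereblon ubiquitin ligase to new substrates, and 4 from cells given the same volume of the solvent DMSO. Per the study's methods, the medium was exchanged for one with amino acids of another isotope label when the drug or the solvent was added, in both groups. The direction of that exchange, light to heavy or the reverse, was swapped in some replicates of each treatment, and the labels do not say in which libraries, so a comparison within each direction was not made. A single cell line at a single dose and time was studied, and the labels do not say whether the replicates were separate cultures. The study's text calls the replicates biological where it shows the RNA. For the protein arm of the experiment it calls them biological in a figure legend and technical in the methods. Errors and p-values therefore measure only the spread between these libraries, which may be technical.

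Kallikrein-related peptidases are secreted serine proteases of the trypsin fold. They are made as inactive zymogens, are activated when a short propeptide is cut off, often by another kallikrein, and are held in check by Kazal-type and serpin inhibitors. In skin they act as a cascade that cuts the desmosomal proteins between shed cells, and several of them also cut and activate protease-activated receptors. Their genes lie side by side and several are known to be raised in carcinomas, those of the colon included.

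The library totals ran from 28218471 to 37473413 counts, with the 4 lenalidomide totals below the 4 DMSO totals. Levels are therefore given as CPM, the read count scaled to a fixed library total after correction by the TMM factor. Of the 8 intestinal epithelial markers, EPCAM, KRT8, KRT18, KRT19, CDH1 and CDX2 were tested and VIL1 and CDX1 had at most 2 reads in any library. The summed level of these 8 markers was 2295 to 2596 CPM with DMSO and 2221 to 2553 CPM with lenalidomide. Markers of other cells were low. The 7 squamous keratinocyte markers summed to 7.98 to 10.3 CPM with DMSO and 8.44 to 10.9 CPM with lenalidomide, nearly all of it KRT10, while KRT5 and KRT14 had at most 3 reads in any library. The 4 immune markers summed to 3.78 to 5.11 CPM and 4.58 to 5.64 CPM, nearly all of it CD68, and PTPRC had 0 to 2 reads in a DMSO library and 3 to 6 in a lenalidomide library. The 3 fibroblast markers summed to 2.68 to 3.38 CPM and 2.47 to 3.86 CPM, and the 3 endothelial markers to 0.348 to 0.409 CPM and 0.302 to 0.693 CPM. In bulk RNA, a change in the number of cells that express a gene and a change in RNA per cell cannot be told apart.

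The members lie next to each other on the minus strand of chromosome 19. In GRCh37 coordinates (hg19, to which the reads were aligned), KLK5 spans chr19:51446559-51456349, KLK6 chr19:51461887-51472929, KLK7 chr19:51479724-51487355 and KLK8 chr19:51499263-51505967. KLK10 spans chr19:51515995-51523431 and KLK11 chr19:51525472-51531295, with KLK9 between KLK8 and KLK10. Measured from the start of KLK6, the other starts lie 14.4 kb away for KLK7, 33.0 kb for KLK8, 50.5 kb for KLK10 and 58.4 kb for KLK11, all upstream of it, and -16.6 kb for KLK5 on the downstream side.

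The RefSeq table of promoters held 5 of the 6 members, with no entry for KLK8. The stretch before the annotated start is shown for KLK5, KLK6 and KLK7, which are neighbours. With DMSO, KLK6 and KLK7 had nearly the same read counts and KLK5 had few. Whether these stretches bear on the levels was not tested. Of the 250 bases before each start, those outside the GENCODE exons of the same gene are printed, since GENCODE places the outermost start further upstream and 55, 82 and 182 bases, in that order of genes, fall in its exons. Each is written 5′ to 3′ on the minus strand, in the direction of transcription, from the RefSeq table (GRCh38.p14), and was placed on GRCh37 by its only exact match on chromosome 19. Capitals mark the letters of a GC box, GGGCGG, here on the other strand.
KLK5: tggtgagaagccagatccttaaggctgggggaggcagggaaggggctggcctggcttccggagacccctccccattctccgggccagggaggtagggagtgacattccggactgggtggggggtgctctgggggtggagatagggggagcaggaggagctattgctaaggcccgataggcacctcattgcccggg
KLK6: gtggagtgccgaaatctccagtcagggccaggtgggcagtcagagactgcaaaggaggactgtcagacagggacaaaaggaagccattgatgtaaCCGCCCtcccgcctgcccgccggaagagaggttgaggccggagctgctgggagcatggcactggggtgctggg
KLK7: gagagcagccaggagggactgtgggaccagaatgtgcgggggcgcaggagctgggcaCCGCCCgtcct
The printed stretches lie at chr19:51456350-51456544 for KLK5, chr19:51472930-51473097 for KLK6 and chr19:51487356-51487423 for KLK7, the last before the first of 3 starts listed for that gene. Gene counts do not show which start was in use.

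The core letters were searched on both strands over the whole 250 bases. KLK6 has 3 copies of GGGCGG, 155, 83 and 11 bases before its start, the first of them on the other strand, and neither TATAA nor CCAAT. The first start of KLK7 has TATAA 27 bases before it, GGGCGG 193 (other strand) and 40 bases before it, and CCAAT 149 bases before it. Its second start has GGGCGG 205 and 46 bases before it, on the other strand, and like KLK6 neither TATAA nor CCAAT. The last of its starts has TATAA 129 and GGGCGG 142 bases before it and no CCAAT. KLK5 has overlapping matches of TATAA on both strands, 29 and 28 bases before its start, and neither GGGCGG nor CCAAT. Of 35116 promoter entries of the same length in the table, 18.9% hold TATAA, 42.6% GGGCGG and 32% CCAAT on either strand. The letters TGANTCA, a site of the AP-1 factors held by 6.57% of entries, and AGAACA, a core of steroid receptor sites held by 12.4%, were in none of the entries listed for the 5 members. The GC content was 66.8% for KLK6, 67.2% for the first start of KLK7 and 64.8% for KLK5. The other starts of KLK7 had 64% and 61.2%, those of KLK10 59.2% and 62.8%, and those of KLK11 58.4% and 69.6%. Over all entries the median was 58% and the quartiles were 46.4% and 68%.

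Among the members, KLK6, KLK7 and KLK8 carried nearly all of the RNA. On a scale per length (RPKM, the CPM divided by the exonic width in kilobases), the means with DMSO were 9.24 ± 0.569 for KLK6, a trypsin-like protease abundant in brain, 8.37 ± 1.06 for KLK8, also known as neuropsin, and 7.87 ± 0.228 for KLK7, the chymotrypsin-like enzyme of the skin cascade (SD, n = 4 each). The ranges over DMSO libraries were 8.40 to 9.62 RPKM for KLK6, 7.51 to 9.85 RPKM for KLK8 and 7.57 to 8.11 RPKM for KLK7. The range of KLK8 thus overlapped both neighbours in the order, while those of KLK6 and KLK7 did not overlap. These levels rest on the deposited widths, 1795 bases for KLK6, 2008 for KLK8 and 2135 for KLK7. GENCODE gives 1976, 1865 and 2448 exonic bases in the same order of genes. The rank of KLK6 against KLK8 may therefore depend on the gene model, and levels with the GENCODE widths were not computed. KLK10, first isolated as a gene lost in breast cancer lines, stood clearly lower at 1.43 ± 0.140 RPKM (range 1.26 to 1.60), and KLK5, a trypsin-like activator of other kallikreins, lower again at 0.358 ± 0.0792 RPKM (range 0.243 to 0.424). Neither range overlapped another member's. KLK11, a trypsin-like member also found in brain and prostate, was close to the limit of detection. KLK6, KLK7 and KLK8 together made up 93.4% ± 0.79 of the members' summed RPKM with DMSO and 93.4% ± 0.53 with lenalidomide (SD, n = 4 each). The level of KLK8 is uncertain, since some of its reads may be shared with KLK9.

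With lenalidomide KLK6 again had the highest mean, and KLK7 and KLK8, whose ranges overlapped in both treatments, changed places. On the deposited widths KLK6 stood alone at the top with 11.7 ± 0.706 RPKM, its range of 10.8 to 12.4 RPKM above every value of KLK7 and KLK8. KLK7 had 8.48 ± 0.442 RPKM (range 7.98 to 9.01) and KLK8 had 8.34 ± 0.607 RPKM (range 7.89 to 9.24), and these overlapped. KLK10 followed at 1.54 ± 0.185 RPKM and KLK5 at 0.460 ± 0.117 RPKM. KLK6 made up 33.9% ± 1.05 of the members' summed RPKM with DMSO and 38.4% ± 1.68 with lenalidomide (SD, n = 4 each).

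**Figure D1:**
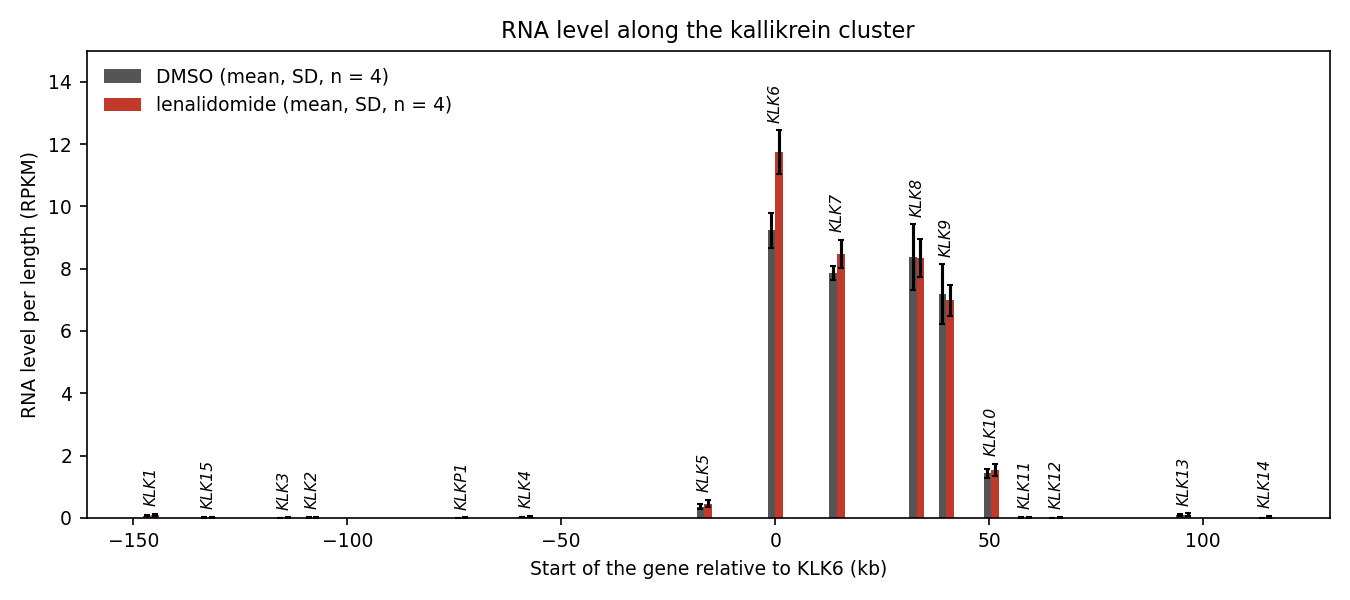
RNA level per length (RPKM, vertical axis) of the 15 kallikrein genes and the pseudogene KLKP1 along the cluster, plotted by the distance of each gene's start from that of KLK6 (kb, horizontal axis), as mean and SD of 4 libraries per treatment. KLK6, KLK7, KLK8 and KLK9 stand between 6.98 and 11.7 RPKM on average, KLK10 at 1.43 and 1.54 RPKM and KLK5 at 0.358 and 0.460 RPKM, and the genes on both flanks lie near 0.

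KLK6 was the member around which the set was picked. Its levels were 16.8, 17.2, 17.3 and 15.1 CPM in DMSO replicates 1 to 4 and 19.4, 20.8, 22.2 and 21.8 CPM in lenalidomide replicates 1 to 4. All lenalidomide values lay above all DMSO values. The group means were 16.6 ± 1.02 CPM and 21.1 ± 1.27 CPM (SD, n = 4 each). On the log2 scale the fitted difference was 0.35 with a standard error of 0.070 and a 95% confidence interval of 0.20 to 0.50, that is 27.1% higher. The raw counts were 571 to 628 with DMSO and 598 to 731 with lenalidomide, so that the difference is seen mainly after scaling by library size. Of all genes tested, 2.95% had a log2 fold change at least as high. Among the 9094 genes tested with a mean of 10 CPM or more, the level of KLK6, the 5th to 95th percentiles of the log2 fold change were -0.097 and 0.15.

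The ratio of KLK6 to KLK7 reads within a library does not depend on that scaling. It was 0.971, 1.01, 1.03 and 0.933 in DMSO replicates 1 to 4 and 1.09, 1.13, 1.31 and 1.14 in lenalidomide replicates 1 to 4, and the groups did not overlap. The ratio of KLK6 to KLK8 reads was 0.995 ± 0.101 with DMSO and 1.26 ± 0.13 with lenalidomide (SD, n = 4 each), and its highest DMSO value, 1.115 in replicate 1, lay just under its lowest lenalidomide value, 1.120 in replicate 2. Both ratios contain the KLK6 counts that chose the set, and describe the same libraries. The KLK8 counts may include reads shared with KLK9. GENCODE places 401 of the 1976 exonic bases of KLK6 on the opposite strand to exons of the lncRNA ENSG00000269495, which also overlaps 202 bases of KLK5. The sources used here state no strand setting for the counting, so reads from either strand may not have been told apart there.

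KLK7 moved less. Its levels were 17.3, 17.0, 16.8 and 16.2 CPM in DMSO replicates 1 to 4 and 17.7, 18.4, 17.0 and 19.2 CPM in lenalidomide replicates 1 to 4. The groups overlapped, since lenalidomide replicate 3 lay below DMSO replicate 1. The means were 16.8 ± 0.487 CPM and 18.1 ± 0.943 CPM (SD, n = 4 each), with a log2 fold change of 0.11 (95% confidence interval -0.031 to 0.24). KLK7 had the steadiest level of the members, with a coefficient of variation within treatments of 4.30%, where counting error alone gives 4.12%.

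KLK8 was at nearly the same mean level in both treatments, 16.8 ± 2.12 CPM with DMSO and 16.8 ± 1.22 CPM with the drug (SD, n = 4 each). Its levels were 15.1, 16.8, 19.8 and 15.5 CPM in DMSO replicates 1 to 4 and 16.3, 18.5, 16.3 and 15.8 CPM in lenalidomide replicates 1 to 4. The highest value was that of DMSO replicate 3, and the groups overlapped over most of their range. The fitted log2 difference was -0.0023 (95% confidence interval -0.19 to 0.19), and its sign turned in 5 of 15 alternatives. The coefficient of variation within treatments was 10.3% for KLK8 against 4.19% from counting error.

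KLK10 and KLK5 had wider intervals. KLK10 had 4.15, 5.27, 4.62 and 4.75 CPM in DMSO replicates 1 to 4 and 4.61, 5.61, 5.56 and 4.47 CPM in lenalidomide replicates 1 to 4, with overlap and a log2 fold change of 0.11 (95% confidence interval -0.13 to 0.36). For KLK10 this was 0.054 without DMSO replicate 1 and 0.17 without DMSO replicate 2. KLK5 had 0.589, 0.662, 0.380 and 0.607 CPM in DMSO replicates 1 to 4 and 0.551, 0.573, 0.851 and 0.901 CPM in lenalidomide replicates 1 to 4. In KLK5, 2 lenalidomide libraries were above every DMSO library and the other 2 were within the DMSO range. The log2 fold change of KLK5 was 0.35, as large as that of KLK6, but its 95% confidence interval ran from -0.20 to 0.90. It rested on 13 to 28 reads per library, and the coefficient of variation within treatments of 24.4% was close to the 21.6% that counting error gives.

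Lenalidomide replicate 4, where KLK5 was highest, was the smallest library and had reads in the most genes, 19568 against 16953 to 18476 in the other 7. The number of genes with reads did not follow KLK5 in other libraries. It was 17667 in lenalidomide replicate 3, with 0.851 CPM of KLK5, and 17630 in DMSO replicate 3, with 0.380 CPM. Among the 1328 genes tested with a mean below 1 CPM, the median log2 fold change was 0.081, with 25% of them above 0.27. The part of lenalidomide replicate 4, or of the shift of low genes, in the KLK5 value was not tested. Without lenalidomide replicate 4 the log2 fold change was 0.23 for KLK5 and 0.33 for KLK6, and without DMSO replicate 3 it was 0.21 for KLK5.

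KLK11 could not be compared. It had 1, 0, 0 and 2 reads in DMSO replicates 1 to 4 and 0, 0, 0 and 2 in lenalidomide replicates 1 to 4. A count of 0 allows up to 3 reads, or 0.0828 to 0.0973 CPM in the 5 libraries without a KLK11 read, for counting error only. Both groups were at or under that floor, so no fold is given, and the low-count filter removed the gene. The other 5 members passed the filter.

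**Figure D2:**
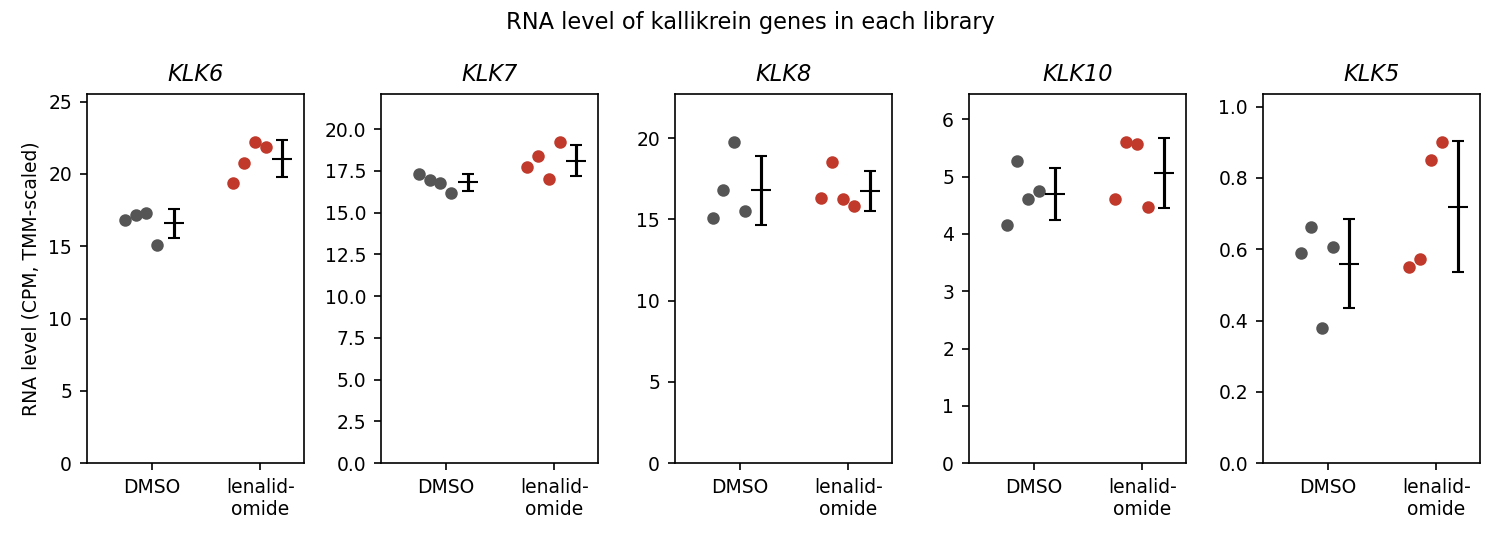
RNA level (CPM, vertical axes from 0, 1 scale per gene) of the 5 tested kallikrein genes in each of the 4 DMSO libraries (grey points) and 4 lenalidomide libraries (red points), in replicate order from left to right, with mean and SD in black. KLK6 is the gene whose lenalidomide values, 19.4 to 22.2 CPM, all lie above its DMSO values, 15.1 to 17.3 CPM, and the groups of the other 4 genes overlap.

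Over the members, 4 of the 5 tested had a positive log2 fold change and the median was 0.11, beside a median of 0.0025 over the 13925 genes tested, of which 51.3% were positive. Groups that did not overlap, with lenalidomide higher, were found for 1 of the 5 members, KLK6, and for 1.24% of all genes tested (2.08% in either direction). Over all genes tested, the quasi-likelihood fit of edgeR gave 0.0144% (2 genes) an adjusted p under 0.05 and 4.18% an unadjusted p under 0.05. DESeq2 and edgeR's likelihood ratio test called 0.0646% and 0.0862% of all genes at an adjusted p under 0.05. Since KLK6 was picked for its difference between the treatments, no call is given for the members. The counts of signs and of overlap describe the members and are no evidence on them.

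**Figure D3:**
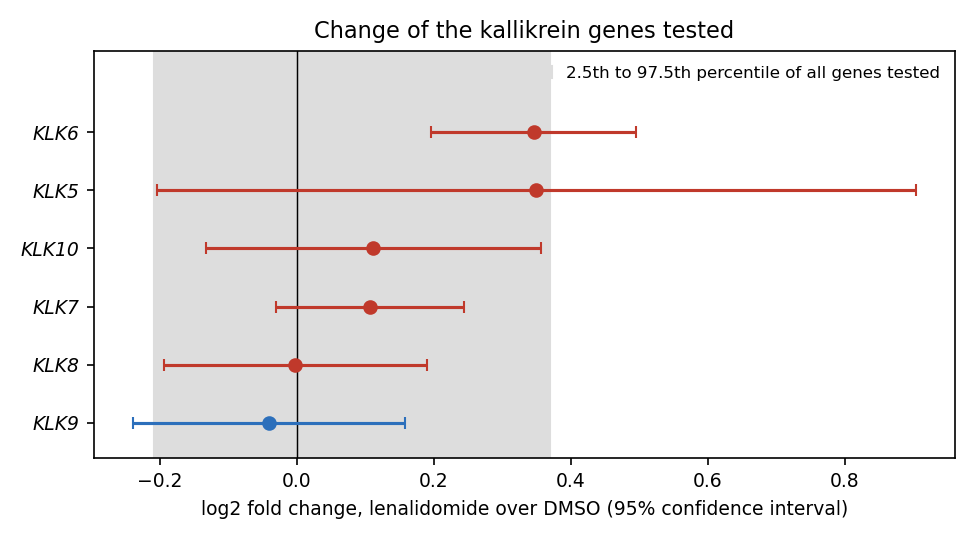
Log2 fold change of lenalidomide over DMSO with its 95% confidence interval (horizontal axis) for the 5 tested members (red) and for KLK9 (blue), beside the central 95% of all genes tested, -0.21 to 0.37 (grey). KLK6 is the gene whose interval, 0.20 to 0.50, lies wholly above 0. The grey range covers genes of every level, and low genes are the most spread in it.

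How far the counts of KLK8 and of its upstream neighbour KLK9 come from the same reads was not tested. KLK9 had 513, 561, 617 and 522 reads in DMSO replicates 1 to 4, which is 91.1%, 92.0%, 91.1% and 88.8% of the KLK8 reads. It had 447, 542, 478 and 400 reads in lenalidomide replicates 1 to 4, which is 88.7%, 88.1%, 89.4% and 87.5% of them. The share was thus nearly fixed while KLK8 itself ranged from 457 to 677 reads. GENCODE gives KLK9 (chr19:51505764-51512890, minus strand) 1443 exonic bases, of which 204 are shared with KLK8. The deposited width of KLK9 is 2122 bases. A readthrough gene of the same strand, ENSG00000269741 (chr19:51499274-51512837), joins both loci and shares 747 exonic bases with KLK8, and its exons together with those of KLK9 come to 1986 bases. Whether the gene model used for counting held these shared exons was not tested. The levels of KLK8 and KLK9 are both reported as uncertain for that reason.

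**Figure D4:**
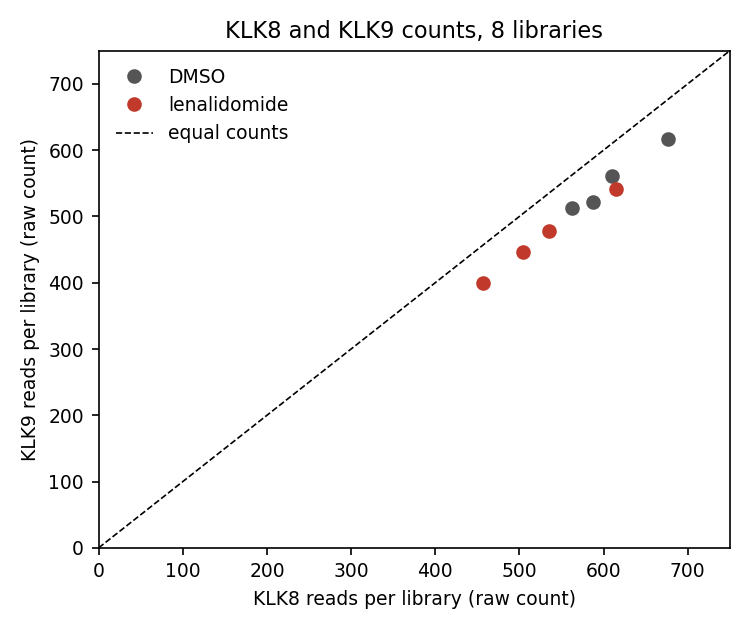
Raw read counts of KLK9 (vertical axis) against KLK8 (horizontal axis) in the 4 DMSO libraries (grey) and 4 lenalidomide libraries (red), with a dashed line for equal counts. The 8 points lie along a single line just under it, at 87.5% to 92.0% of the KLK8 count.

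Apart from KLK9, the remaining kallikreins of the cluster were nearly silent. Of 10 further genes, KLK9 alone passed the filter, at 15.3 ± 2.02 CPM in the DMSO group and 14.8 ± 1.07 CPM in the drug group (SD, n = 4 each). For KLK9 the fitted log2 difference was -0.040 (edgeR quasi-likelihood, adjusted p = 0.999). KLK13 had 53 reads over the 8 libraries, KLK1, the tissue kallikrein that releases kinins, 37 and KLK4, an enzyme of enamel and prostate, 18. KLK2 had 8 reads, KLK14 and KLK15 had 4 each, the pseudogene KLKP1 had 3, and KLK12 and KLK3, which encodes prostate-specific antigen, had 1 each. The tested members thus lay from KLK5 to KLK10, with KLK4 on one side and KLK11 and KLK12 on the other below the filter. The levels of KLK8 and KLK9, within that stretch, are uncertain.

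The genes of other families around the cluster showed no called change. Of 14 neighbours listed, 6 were tested and 0 had an adjusted p under 0.05 in either direction, with 0 at an unadjusted p under 0.05. In the same quasi-likelihood fit these shares were 0.0144% and 4.18% of all genes tested. Their median log2 fold change was 0.046. CTU1, a tRNA-modifying enzyme just past KLK14, was at 2.25 ± 0.539 CPM in the DMSO group and 2.47 ± 0.399 CPM in the drug group, CD33 had a log2 fold change of 0.088 and ETFB, a subunit of the electron transfer flavoprotein, of -0.021 (SD, n = 4 each).

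Among the lists around the proteases, receptors and substrates had the highest summed level, 1104 to 1270 CPM with DMSO, against 348.0 to 391.7 CPM for inhibitors and 172 to 189 CPM for activators and other proteases. Of 14 inhibitors listed, 6 were tested, 1 with a positive and 5 with a negative log2 fold change. The median was -0.155, beside 0.0025 over all genes tested. The tested serpins among them were each below 1 CPM on average. Their log2 fold changes ran from -0.36 to 0.072, with standard errors of 0.22 to 0.27. At higher levels, SPINT2 had a log2 fold change of -0.081 and SPINT1 of -0.011. The median thus rests partly on genes with few reads and does not show a fall of the inhibitors. SPINT2, a Kunitz-type inhibitor of trypsin-like proteases on the cell surface, was at 298 ± 19.7 CPM in the DMSO group and 282 ± 13.5 CPM in the drug group (SD, n = 4 each), and SPINT1 had 61.5 ± 1.72 CPM and 61.1 ± 0.641 CPM. SPINK5, the Kazal-type inhibitor of the skin kallikreins, had 1 to 3 reads per library. The inhibitors known for the skin cascade, SPINK5, SPINK6 and SPINK9, were thus all below the filter.

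Of 13 activators and other proteases of the fold listed, 12 were in the table and 5 were tested, with log2 fold changes from -0.036 to 0.025. PRSS8, also known as prostasin, had a log2 fold change of -0.036, PRSS3, a trypsinogen, of -0.033, and PLAU, the urokinase that activates plasminogen, of 0.025. Of 20 receptors and substrates, 9 were tested, 5 with a positive and 4 with a negative log2 fold change, with a median of 0.060. DSG2, a desmosomal cadherin, was at 319 ± 19.4 CPM in the DMSO group and 368 ± 47.8 CPM in the drug group (SD, n = 4 each). Its log2 fold change of 0.20 did not pass over all genes (edgeR quasi-likelihood, adjusted p = 0.999), while its unadjusted p was under 0.05. Its partner DSC2 had a log2 fold change of 0.14 and FN1, the matrix protein fibronectin, of 0.11. For both desmosomal genes the treatments overlapped.

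Of 8 receptors for steroid and related hormones, a group that is known to control kallikrein genes in hormone-dependent tissues, 5 were tested and 1 of them, VDR, had an unadjusted p under 0.05. VDR, the vitamin D receptor, had 18.8, 17.7, 18.9 and 18.2 CPM in DMSO replicates 1 to 4 and 16.6, 15.6, 16.0 and 15.3 CPM in lenalidomide replicates 1 to 4. All lenalidomide values were below all DMSO values, as for 0.84% of all genes tested. The log2 fold change of VDR was -0.21 (95% confidence interval -0.34 to -0.077) and did not pass over all genes (edgeR quasi-likelihood, adjusted p = 0.999). THRB, a thyroid hormone receptor, had a log2 fold change of 0.15 and NR3C2, the mineralocorticoid receptor, of -0.066. ESR1, the oestrogen receptor alpha, had 14 reads over the 8 libraries. Over all 6 lists of other genes, 32 genes were tested, 0 were called by the quasi-likelihood test of edgeR, by DESeq2 or by the likelihood ratio test, and 2 had an unadjusted p under 0.05. Of all genes tested, these tests called 0.0144%, 0.0646% and 0.0862%, and 4.18% had an unadjusted quasi-likelihood p under 0.05. With shares so small over all genes, these counts say little about the lists.

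**Figure D5:**
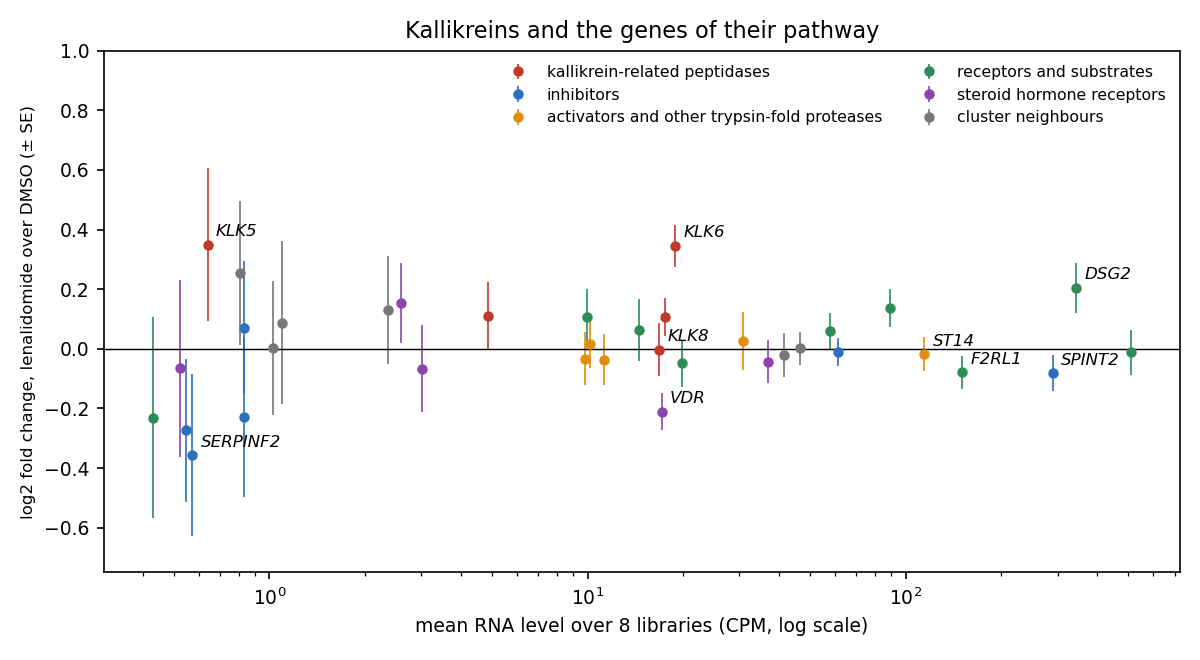
Log2 fold change of lenalidomide over DMSO (vertical axis, ± standard error) against the mean level over 8 libraries (CPM, log scale) for the tested members and for the tested inhibitors, proteases, receptors and substrates, hormone receptors and cluster neighbours. KLK6 at 0.35 and VDR at -0.21 stand at opposite sides of 0 at levels of 18.8 and 17.1 CPM, while KLK5, with a mean of 0.639 CPM, has a standard error of 0.26.

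The likeness of patterns was measured by Pearson's r of log2 CPM over the 8 libraries, which share cell line, kit and treatment groups, so that r describes these libraries. Between members, r was 0.73 for KLK6 and KLK7, 0.55 for KLK5 and KLK6, 0.40 for KLK6 and KLK10 and 0.11 for KLK6 and KLK8, whereas KLK5 and KLK8 had -0.62. KLK7 and KLK8, the next neighbours, had 0.0046. KLK8 and KLK9, whose reads may be shared, had 0.98. The genes most like KLK6 were FDPSP2 (0.98), PITPNA (0.97), KCNJ14 (0.95), CEP41 (0.94) and GUSBP3 (0.93), and 3 of these 5 were below 1 CPM on average. The genes most like KLK7 were MVB12B, STON1 and EXOC4, with r from 0.95 to 0.96, and those most like KLK8 were TIMM13, KLK9 and PDLIM7, with r from 0.98 to 0.99. For KLK10 they were COA1, UQCR11 and GATB, with r from 0.96 to 0.98, and for KLK5 they were TMEM243, FKBP1A and ACTR3B, each with r of 0.97. None of these genes was named for more than 1 member.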

How the data were processed

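RNA of Hct116 cells was sequenced from ScriptSeq v2 total RNA libraries. Per the study's methods, the authors aligned the reads to hg19 with QuasR (spliced alignment, otherwise default parameters) and deposited raw read counts per UCSC known gene, without normalization, beside the exonic width of each gene. The submitters' processing notes list bcl2fastq 2.17. The version of QuasR is not given in the sources used here. The table held 23459 genes and 0 sample columns were left unmapped.

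The counts were fitted with edgeR 4.0.16 under R 4.3.3. Genes were kept by filterByExpr (minimum count 10, minimum total 15), which left 13925, scaled by TMM factors and compared by the quasi-likelihood test with Benjamini-Hochberg adjustment at 0.05. The F statistic of each coefficient gave its standard error and 95% confidence interval. log2 CPM used a prior count of 2. CPM and RPKM were computed from the counts, TMM-scaled totals and exonic widths. Fits were tested on simulated counts. No library was a repeat of another of its group within sampling noise (chi-square per degree of freedom 5.55 to 24.1). PCR duplicates cannot be told from separate molecules, so floors cover counting error only.

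The members and gene lists were chosen with earlier results of these data known. In each list, genes past the threshold were to be named, and otherwise up to 3 with the largest log2 fold change in size at a mean of at least 1 CPM, as were the 5 genes most like KLK6 and 3 most like each other member. Reads of SPINK5, SPINK6, SPINK9 and ESR1, below that rule, were added after their values were seen. Coordinates and overlaps come from GENCODE on GRCh37 and promoters from RefSeq (GRCh38.p14). Alternatives were RLE scaling, DESeq2 1.42.0, the likelihood ratio test, other filters, an adjusted p under 0.1, thinning to the smallest total, a replicate block and leaving out each library. PRSS2 was not analysed here, and 1 further listed gene is not reported here.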

Additional observations from a re-analysis of the deposited data

Results flagged for a closer look

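Among 40 sets of 4 values examined for the tested members and the named list genes, a single value stood apart from its group, where about 2 would do so by chance. This was PLAU, the urokinase gene, in DMSO replicate 3. It had 38.5 CPM there, while the remaining DMSO libraries had 27.4 to 28.2 CPM and the lenalidomide libraries 29.5 to 33.4 CPM. The same library held the highest KLK8 value, 19.8 CPM, and the lowest KLK5 value, 0.380 CPM, of the DMSO group, although neither was far enough from the rest by the same measure.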

How the results depend on the processing

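The log2 fold changes of KLK5, KLK6, KLK7 and KLK10 kept their sign in all 15 alternatives run. That of KLK6 stayed between 0.30 (without DMSO replicate 4) and 0.38 (without lenalidomide replicate 1). That of KLK5 was lowest, 0.21, without DMSO replicate 3 and highest, 0.45, without lenalidomide replicate 1. That of KLK10 ran from 0.054 without DMSO replicate 1 to 0.17 without DMSO replicate 2, and that of KLK7 from 0.077 to 0.14. KLK8, at -0.0023, changed sign in 5 of the 15 and ran from -0.055 to 0.082. The count of all genes called was 2, both higher with lenalidomide. It was 9 (6 higher, 3 lower) with DESeq2, 12 (8 higher, 4 lower) with the likelihood ratio test, 4 (1 lower) when all genes with any count were kept, and 1 to 2 on leaving out single libraries, with 1 to 2 higher and 0 lower. With the replicate block it was 6 (4 higher, 2 lower). The cause was not tested. The labels do not say whether the replicate numbers pair the samples. Deviations of same-numbered libraries correlated at 0.028, -0.024, 0.031 and 0.27, and 1 of 4 DMSO libraries correlated best with its own number. Values from so few libraries cannot decide whether the samples are paired. The block called 0 of the 32 other listed genes, and no alternative called any of them. KLK5 is limited by its 13 to 28 reads per library and KLK11 by its 0 to 2. Raw library totals in place of scaled ones left every mean RPKM with DMSO within 1 SD.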

Other observations

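The spread within treatments differed between members of similar level. KLK6, KLK7 and KLK8 had 571 to 731, 547 to 647 and 457 to 677 reads per library, so that counting error alone gives coefficients of variation of 3.98%, 4.12% and 4.19%. Within treatments they were 6.12%, 4.30% and 10.3%, beside a median of 7.90% over all genes tested. KLK9 had 10.8% within treatments.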
